A study of Homo sapiens with 4 samples.

Results

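Chromatin accessibility was examined at 9 genes of the extrinsic apoptosis pathway in HK1, a human cell line established from nasopharyngeal carcinoma: the ligand gene TNFSF10, the receptor genes TNFRSF10A, TNFRSF10B, TNFRSF10C and FAS, the adaptor gene FADD, the initiator caspase genes CASP8 and CASP10, and the inhibitor gene CFLAR. The ATAC-seq series held 4 libraries, 1 in each group: WT cells without treatment (WT), WT cells given IFN-γ (WT-IFN-γ), FLI1-knockout cells without treatment (sgFLI1) and FLI1-knockout cells given IFN-γ (sgFLI1-IFN-γ). All 4 came from HK1 cells, and the sources used here do not say whether the FLI1-KO cells were a clone or a pool. Peaks were assigned to a gene when they overlapped its GENCODE body or the 10 kb upstream of it. Joining overlapping peaks of the 4 lists gave 93211 regions in all, of which 31 belonged to these genes. The member genes held 21 of 59629 peaks in WT, 27 of 67470 in WT-IFN-γ, 20 of 63203 in sgFLI1 and 24 of 59923 in sgFLI1-IFN-γ.

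In this pathway the ligands TRAIL (TNFSF10) and FAS ligand bind death receptors at the cell surface. The engaged receptors recruit FADD, which brings in caspase-8 and caspase-10 so that these initiator proteases activate one another, while the caspase-like protein c-FLIP (CFLAR) competes with them and restrains the signal. Cytotoxic lymphocytes use the pathway to kill tumor cells, and interferons are known to induce TRAIL, FAS and caspase-8 in many epithelial cells. ATAC-seq reports where a transposase can insert into DNA, so a peak marks open chromatin and is not a measure of transcription.

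As the series held 1 library per group, differences between libraries have no replicate check and no p-value is given. Each value is the number of tags piled up at a peak summit, with the exact 95% Poisson interval. These intervals cover counting error only, and may be too narrow even for that, since tags without molecular identifiers are not independent molecules. The background per site was 2.20 tags in WT and 2.20 in WT-IFN-γ, against 1.80 untreated and 1.75 treated in FLI1-KO cells, and estimated tag density was 1.29 times as high in WT-IFN-γ as in sgFLI1-IFN-γ. Pileups were therefore divided by the tag density of their library before a ratio was taken. Of the keratinocyte markers TP63, KRT5, KRT14 and KRT17, only KRT17 had a peak at its canonical transcription start site (TSS), and no library had a peak at the canonical TSS of the leukocyte genes PTPRC, CD3E and CD8A. The peak lists hold no measure of FLI1 RNA or protein, so the knockout was taken from the labels.

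The highest pileups among member peaks present in WT-IFN-γ and absent from WT lay at the TNFSF10 promoter, within CASP10, and upstream of the canonical FAS start. The CASP10 site lies toward the 3′ end of the gene body, upstream of CASP8, and is called CASP10-CASP8. The sequences of these peaks are shown with that of the CASP8 first start. They hold or lack the GAAANNGAAA repeat bound by interferon regulatory factors (IRF), searched on both strands. Capitals mark that motif in the TNFSF10, FAS and CASP8 sequences, and the AP-1 motif TGANTCA in the CASP10-CASP8 one, which has no IRF match. All are in GRCh38. The TNFSF10 stretch is chr3:172523476-172523680 on the minus strand, upstream of every annotated TNFSF10 start. The CASP10-CASP8 stretch is chr2:201227330-201227530 on the plus strand, which is 100 bases on each side of the WT-IFN-γ summit. Only 30 bases around the match are given for FAS (chr10:88975114-88975143, plus strand), where the match lies in the last exon of a STAMBPL1 transcript, and for CASP8 (chr2:201233450-201233479, plus strand), where it lies at annotated first exons.
TNFSF10: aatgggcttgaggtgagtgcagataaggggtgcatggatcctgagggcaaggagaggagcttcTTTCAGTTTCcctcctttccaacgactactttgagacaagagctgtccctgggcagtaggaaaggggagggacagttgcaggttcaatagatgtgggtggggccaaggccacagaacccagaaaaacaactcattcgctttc
CASP10-CASP8: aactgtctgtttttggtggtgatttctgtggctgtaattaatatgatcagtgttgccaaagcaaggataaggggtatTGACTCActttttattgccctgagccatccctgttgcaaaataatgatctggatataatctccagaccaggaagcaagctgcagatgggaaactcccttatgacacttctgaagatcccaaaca
FAS: ccactgaagtGAAAGTGAAAccagaatgct
CASP8: gagtttttggTTTCTGTTTCaccttgtgtc

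TNFSF10, which encodes TRAIL, had a strong promoter peak in WT-IFN-γ and none in WT. A peak of one library that no peak of the other overlapped by at least 1 bp is called gained or lost below. The region (chromosome 3, 172523045 to 172524073, summit at -86 bp from the canonical TSS) had 58 tags in WT-IFN-γ (44.0 to 75.0) and no listed peak in WT or in sgFLI1-IFN-γ. In sgFLI1 it was listed with 9 tags (4.12 to 17.1). Only the treated WT library was high, since the sgFLI1 peak was close to the lower end of its list, with a significance above 7.52% of the peaks there, against 80.8% for the WT-IFN-γ peak in its own list. Of the 16999 peaks gained in WT-IFN-γ over WT, 91 were as significant as this one or more so.

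A missing peak is a pileup below what the caller would list, not a pileup of 0. From the local background, the lowest pileup that would have been listed at the TNFSF10 promoter was estimated at 13 tags in WT and 12 tags in sgFLI1-IFN-γ. These limits were scaled from the WT-IFN-γ local background of 4.97 tags and may be too high. In sgFLI1 the region was listed with 9 tags, at a local background of 1.80. The WT-IFN-γ pileup brought to the depth of these libraries would have been 52.8 and 45.0 tags, both well over those limits. Ratios were also taken for peaks within 5 Mb of TNFSF10 present in both libraries with more than 60 tags in sum. Their median was 0.994 for WT-IFN-γ over WT (n = 74 peaks) and 0.960 for sgFLI1-IFN-γ over WT-IFN-γ (n = 73). The IRF match of the promoter starts at -187 bp from the TSS, 101 bases from the WT-IFN-γ summit and inside that peak, but outside the sgFLI1 peak, which ended at 172523567.

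**Figure D1:**
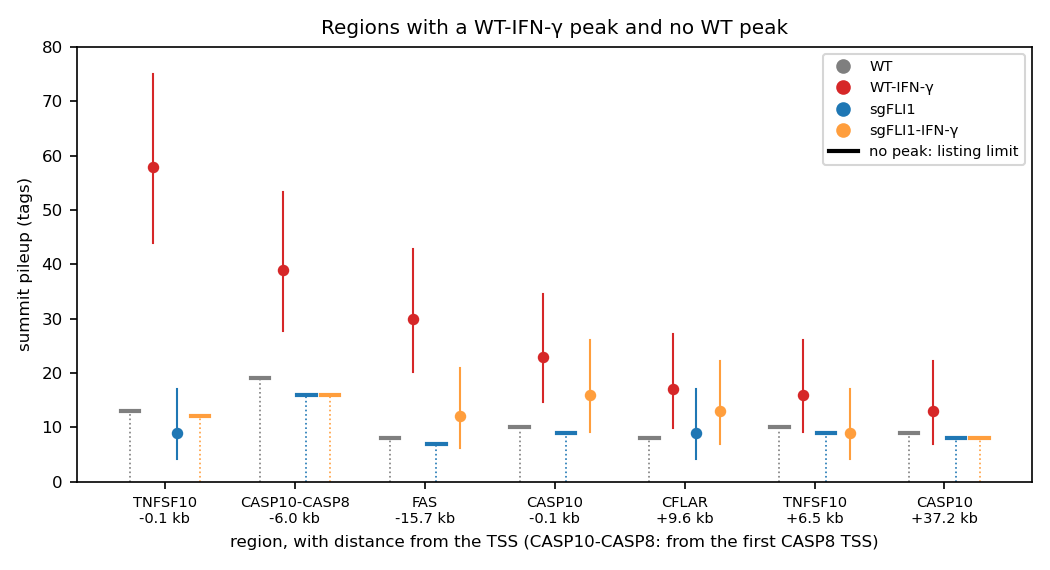
Summit pileup in tags (vertical axis) for the 7 regions with a WT-IFN-γ peak and no WT peak. Points are listed peaks with 95% Poisson intervals, and thick ticks mark the estimated listing limit where a library had no peak. TNFSF10 at -86 bp stands highest with 58 tags, and 4 of the 7 regions also had a sgFLI1-IFN-γ peak. Among such regions of the whole series, 1624 were in both treated libraries only and 2679 in all libraries but WT. A further 10854 were in WT-IFN-γ alone and 1681 in WT-IFN-γ and sgFLI1.

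The other TNFSF10 peaks lay in intron 1 and were weak. One at +6465 bp was listed with 16 tags in WT-IFN-γ (9.15 to 26.0) and 9 tags in sgFLI1-IFN-γ (4.12 to 17.1), and in neither untreated list. Their depth-scaled ratio, sgFLI1-IFN-γ over WT-IFN-γ, was 0.725 (0.282 to 1.74), so no difference was detectable at this depth. The peak at +7911 bp had 12 tags in WT, 14 in WT-IFN-γ and no listed peak in either FLI1-KO library, where about 9 tags would have been needed. At the depth of sgFLI1 and sgFLI1-IFN-γ the WT-IFN-γ value corresponds to 11.0 and 10.9 tags, only slightly over that limit.

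Both TRAIL death receptor genes had open promoters in every library, with little movement between them. TNFRSF10A, encoding TRAIL-R1, had 117 tags at its promoter in WT and 118 in WT-IFN-γ, against 91 untreated and 85 treated in FLI1-KO cells (chromosome 8, 23223833 to 23225949). The depth-scaled ratio was 0.918 (0.705 to 1.20) for WT-IFN-γ over WT and 0.944 (0.694 to 1.28) for sgFLI1-IFN-γ over sgFLI1. Values were lower in both FLI1-KO libraries as counted, and after scaling the sgFLI1 over WT ratio of 0.902 had an interval that held 1 (0.679 to 1.20). An intron 1 site at +6777 bp had 12 to 16 tags in all 4 libraries, and a further site at +5873 bp was listed in sgFLI1-IFN-γ alone with 12 tags, near the listing limits of 11 to 13 in the others.

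TNFRSF10B, encoding TRAIL-R2, had 88 tags at its promoter in WT and 96 in WT-IFN-γ, against 80 untreated and 60 treated in FLI1-KO cells (chromosome 8, 23067943 to 23069443). A second site upstream, at -5736 bp, was about as open, with 73, 86, 78 and 63 tags in the same order. Neither site changed beyond counting error with IFN-γ. The promoter ratio was 0.993 (0.736 to 1.34) in WT and 0.758 (0.533 to 1.07) in FLI1-KO cells. A region at the 3′ end of the gene, at +49598 bp, had between 61 and 71 tags in the 4 libraries. An intron 2 site at +26735 bp had 17, 12, 11 and 17 tags, and its largest ratio, sgFLI1-IFN-γ over WT-IFN-γ, was 1.83 (0.821 to 4.19). A site at +19187 bp was listed in WT alone with 12 tags.

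TNFRSF10C, encoding the decoy receptor TRAIL-R3, which binds TRAIL without a death domain, had no peak at its promoter or in its body in any library. Its 1 region lay at the upstream edge of the window, at -10390 bp, with 20 tags in WT and 18 in WT-IFN-γ, against 17 untreated and 21 treated in FLI1-KO cells. The FLI1-KO peaks there ended just outside the 10 kb limit, so that the gene counted 1 peak in each WT library and 0 in each FLI1-KO library although the site was open at like levels in all 4. The other decoy gene, TNFRSF10D, likewise had no promoter peak in any library.

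FAS, the receptor of FAS ligand, had an open promoter throughout and a distal site listed only in the treated libraries. The promoter (chromosome 10, 88990136 to 88991976) had 76 tags in WT and 102 in WT-IFN-γ, against 75 untreated and 74 treated in FLI1-KO cells. WT-IFN-γ was the highest as counted, and the scaled ratio over WT was 1.22 (0.899 to 1.67), which held 1. In FLI1-KO cells the ratio was 0.997 (0.713 to 1.39).

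The distal FAS site (chromosome 10, 88974547 to 88975775) lay at -15705 bp from the canonical TSS and 5297 bp inside a longer annotated FAS transcript. It had 30 tags in WT-IFN-γ (20.2 to 42.8) and 12 in sgFLI1-IFN-γ (6.20 to 21.0). Neither untreated library listed it, where 8 tags in WT and 7 in sgFLI1 would have sufficed and the WT-IFN-γ value corresponds to 27.3 and 23.5 tags. Between the treated libraries the scaled ratio, sgFLI1-IFN-γ over WT-IFN-γ, was 0.515 (0.240 to 1.04). The lower FLI1-KO value was thus within counting error at this depth, though only narrowly. Its IRF match begins 31 bases from the WT-IFN-γ summit. Because the site also falls in STAMBPL1, the peak lists do not say which gene it serves. A weaker site at -25472 bp was listed in both WT libraries, with 12 tags untreated and 11 treated, and in neither FLI1-KO library. FASLG, which encodes the ligand, had no promoter peak in any library.

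FADD, the adaptor that links the receptors to the caspases, had the same 2 sites in all 4 libraries and none gained or lost. Its promoter (chromosome 11, 70202882 to 70204440) had 101 tags in WT and 86 in WT-IFN-γ, against 66 untreated and 64 treated in FLI1-KO cells. WT was the highest, yet the scaled ratios of WT-IFN-γ over WT (0.775, 0.574 to 1.04) and of sgFLI1 over WT (0.758, 0.547 to 1.04) both held 1. The site at -6981 bp had 28, 30, 31 and 24 tags in the same order.

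CASP10, encoding the initiator caspase-10, had a promoter peak only with IFN-γ, in both genotypes. The region (chromosome 2, 201182910 to 201183321, summit at -86 bp) had 23 tags in WT-IFN-γ (14.6 to 34.5) and 16 in sgFLI1-IFN-γ (9.15 to 26.0). Neither untreated library listed it, with limits of 10 tags in WT and 9 in sgFLI1 against 20.9 and 18.0 tags for the WT-IFN-γ value at those depths. The scaled ratio between the treated libraries was 0.896 (0.443 to 1.77). A site upstream, at -5643 bp, was open in all 4 libraries with 28, 37, 31 and 30 tags. A peak in exon 10, at +37243 bp, was listed with 13 tags in WT-IFN-γ alone.

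Toward the 3′ end of the CASP10 gene body, a region was listed in WT-IFN-γ alone (chromosome 2, 201227162 to 201227591). It lies outside the canonical CASP10 transcript, at -6013 bp from the first CASP8 start. It had 39 tags (27.7 to 53.3). The background was high there, and the estimated listing limits were 19 tags in WT and 16 in both FLI1-KO libraries, against 35.5, 30.6 and 30.3 tags for the WT-IFN-γ value at their depths. In WT-IFN-γ it was the second highest pileup among the gained member regions, but 1969 gained peaks of the series were as significant or more so. It belongs to the windows of both caspase genes and is counted once.

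CASP8, encoding the initiator caspase-8, was open at 2 start regions in all libraries. The first (chromosome 2, 201232215 to 201234414) had 99 tags in WT and 103 in WT-IFN-γ, against 83 untreated and 57 treated in FLI1-KO cells. The treated FLI1-KO library was the lowest, and the ratio sgFLI1-IFN-γ over sgFLI1 was 0.694 (0.486 to 0.984), the only one among regions matched one to one whose interval left out 1. Over shared peaks with more than 60 tags in sum, the median of that ratio was 0.895. Among those within 5 Mb of CASP8 it was 0.874 (n = 69 peaks). Dividing by the local median gave 0.794 (0.557 to 1.13), an interval that held 1. In sgFLI1-IFN-γ the region was split in 2 peaks, and the second, with 44 tags, met no sgFLI1 peak. It overlapped the single broad peak of both WT libraries. The region over the second start group, at -2234 bp from the canonical TSS, had 89, 94, 91 and 80 tags.

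Toward the 3′ end of CASP8 a site at +84886 bp was listed in WT alone with 11 tags, and one at +98338 bp in sgFLI1-IFN-γ alone with 20 tags (12.2 to 30.9). The nearest start to both belongs to FLACC1. The estimated limits for the second of these were 9 to 10 tags in the other libraries, and its value at their depths was 20.2 to 25.8 tags.

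CFLAR, encoding c-FLIP, was open over its start and at 3 intronic sites in every library. The start region (chromosome 2, 201116133 to 201119147) held 1 broad peak in WT with 84 tags and 2 peaks in each of the others. The strongest of these was at the start in WT-IFN-γ (95 tags) and sgFLI1-IFN-γ (65) and downstream of it in sgFLI1 (61), where the peak over the start had 55. The intron 7 site at +33526 bp had 55 tags in WT and 40, 40 and 37 in the others, and its WT-IFN-γ over WT ratio was 0.662 (0.429 to 1.01). The intron 8 sites had 63, 60, 49 and 58 tags at +35238 bp and 31, 33, 25 and 28 tags at +42131 bp.

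A site in CFLAR intron 1, at +9625 bp, was listed in WT-IFN-γ with 17 tags (9.90 to 27.2), in sgFLI1 with 9 (4.12 to 17.1) and in sgFLI1-IFN-γ with 13 (6.92 to 22.2). WT alone did not list it, where 8 tags would have been enough. The FLI1-KO ratio with treatment was 1.46 (0.577 to 3.87). A peak at +14637 bp was listed in sgFLI1 alone with 10 tags.

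**Figure D2:**
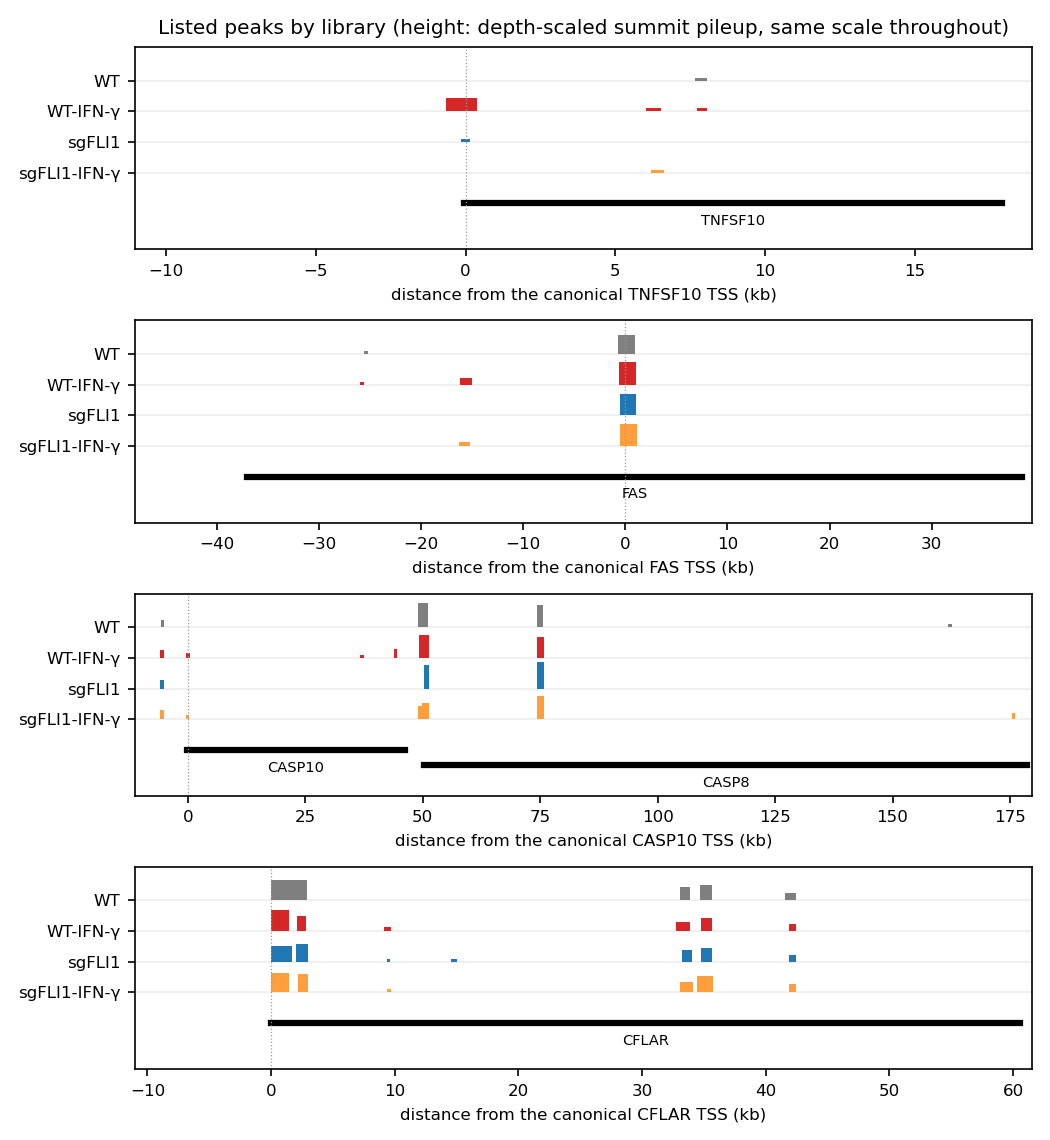
Peaks of the 4 libraries along TNFSF10, FAS, the CASP10-CASP8 locus and CFLAR, by distance from the canonical TSS in kb. Box width is the listed peak and box height its depth-scaled summit pileup, and black bars are gene bodies. The TNFSF10 start is covered by a tall box in WT-IFN-γ and a low one in sgFLI1, while the FAS, CASP8 and CFLAR starts are covered in all 4.

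Counted over the 9 genes, peaks appeared with IFN-γ about as often as elsewhere in the genome. Of 27 member peaks of WT-IFN-γ, 7 met no WT peak (25.9%, Wilson 95% interval 13.2 to 44.7), against 25.2% of all WT-IFN-γ peaks. These 7 lay at TNFSF10, FAS, CASP8, CASP10 and CFLAR and had a median of 23.0 tags, while the median over all such peaks was 14 tags. Of 21 WT peaks, 2 met none in WT-IFN-γ (9.52%, 2.65 to 28.9), against 15.9% of all. In FLI1-KO cells 6 of 24 treated peaks met no untreated peak (25.0%, 12.0 to 44.9), against 18.0% of all, and 2 of 20 untreated peaks met no treated one (10.0%, 2.79 to 30.1), against 22.2%. Each of these intervals held the share of its whole list, so these gained and lost shares do not set the 9 genes apart.

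Per gene, 5 of the 9 had a gained peak in WT, against 32.0% of 19970 protein-coding genes, and 5 of the 9 had one in FLI1-KO cells, against 22.9%. TNFSF10, FAS, CASP8 and CASP10 were among both. The same site was gained in both genotypes at TNFSF10 +6465 bp, FAS -15705 bp and CASP10 -86 bp. The TNFSF10 site had 9 tags in sgFLI1-IFN-γ, and the TNFSF10 promoter peak was gained in WT only. CASP8 counted through different sites. In WT it was the region shared with CASP10, and in FLI1-KO cells the 44-tag part of the first start and the site at +98338 bp. CFLAR had a gained peak in WT only and TNFRSF10A in FLI1-KO only, and whether these genes differ between genotypes was not tested. The windows of the 9 genes were longer, with a median of 56.6 kb against 37.5 kb over all genes, which gives each more room for a peak.

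Between genotypes, 3 of 20 sgFLI1 peaks met no WT peak (15.0%, 5.24 to 36.0), against 25.3% of all, and 4 of 21 WT peaks met no sgFLI1 peak (19.0%, 7.67 to 40.0), against 21.4%. With IFN-γ, 2 of 24 sgFLI1-IFN-γ peaks met no WT-IFN-γ peak (8.33%, 2.32 to 25.8), against 19.8%, and 5 of 27 WT-IFN-γ peaks met no sgFLI1-IFN-γ peak (18.5%, 8.18 to 36.7), against 29.0%. Those 5 were 2 at TNFSF10, 1 at FAS, 1 in exon 10 of CASP10 and the CASP10-CASP8 region. These intervals also held the shares of their lists, and the comparisons share libraries with those of treatment.

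Most member regions were common to the libraries. Of 31 regions, 17 were listed in all 4 (54.8%, against 43.9% of all regions), 3 in both treated libraries and no untreated one (9.68%, against 1.74%), 2 in WT-IFN-γ alone (6.45%, against 11.6%) and 1 in WT-IFN-γ and sgFLI1 (3.23%, against 1.80%). The 3 treated-only regions were those at FAS -15705 bp, CASP10 -86 bp and TNFSF10 +6465 bp, with 30, 23 and 16 tags in WT-IFN-γ. Their share was above that of the series, but it rests on 3 regions, has no interval here and was not tested.

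**Figure D3:**
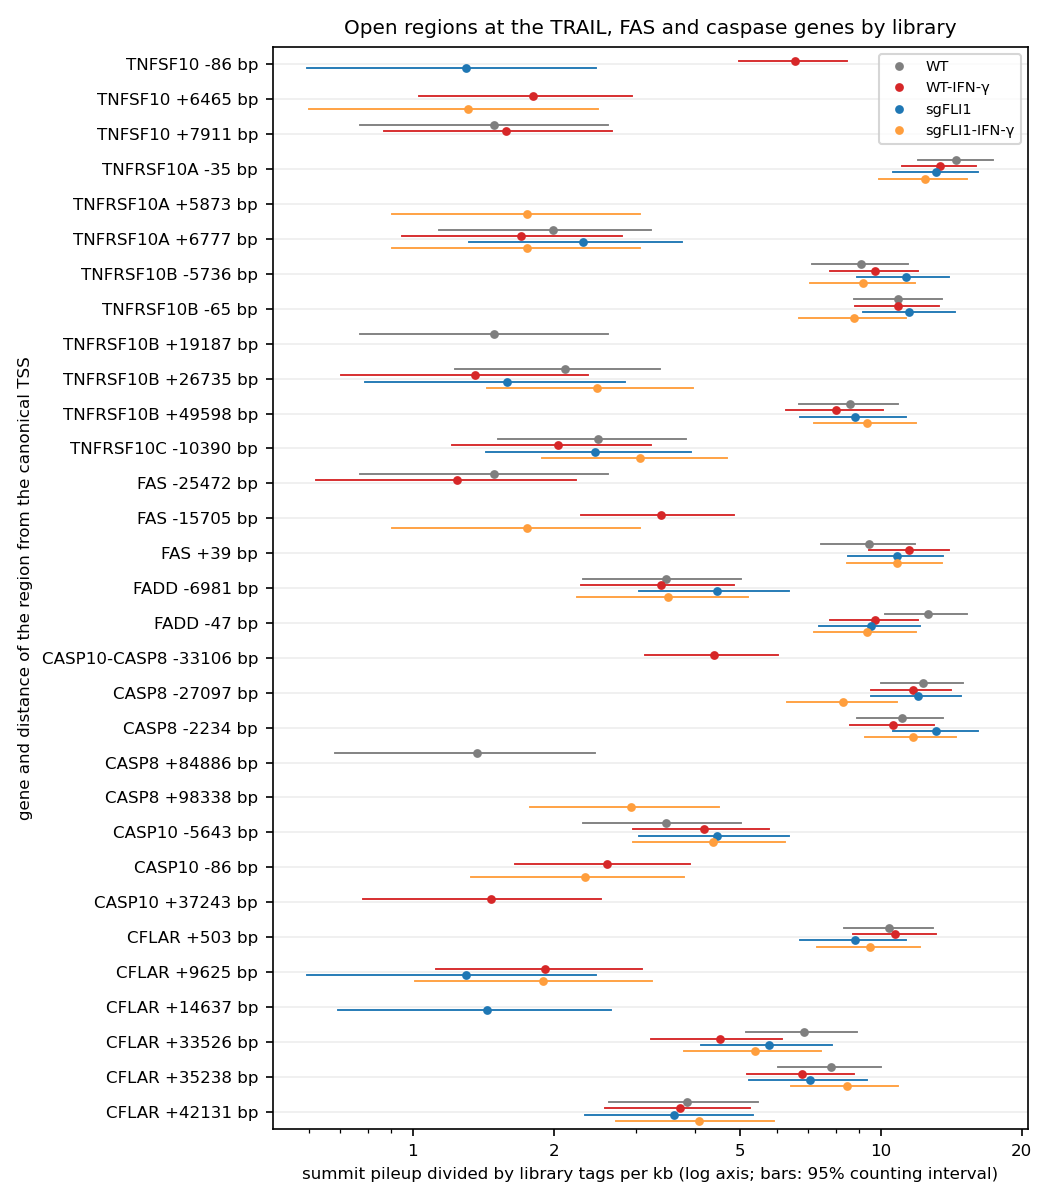
Depth-scaled summit pileup (log axis, tags divided by the library's tags per kb) of the 31 regions, with 95% Poisson intervals, by library. Rows give the distance from the canonical TSS, and for regions with 2 peaks in a library the higher is shown. Most rows have 4 overlapping points, and TNFSF10 at -86 bp has a WT-IFN-γ point at 6.56 and an sgFLI1 point at 1.30.

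For regions present in both libraries of a pair, ratios were taken where 1 peak of each list met 1 of the other. In WT-IFN-γ over WT, all 18 intervals of such member regions held 1. Their ratios had a median of 0.942 and ranged from 0.642 to 1.22, beside a reference median of 0.958. The reference medians in this paragraph are over shared peaks of the whole lists with more than 60 tags in sum. Member regions did not have to meet that limit, so the sets of peaks are not alike. In sgFLI1-IFN-γ over sgFLI1, 17 of 18 held 1, with a median of 0.979 beside 0.895. In sgFLI1 over WT all 16 held 1 (median 1.01 beside 1.03), and in sgFLI1-IFN-γ over WT-IFN-γ all 20 did (median 1.01 beside 0.962). In 3 of these comparisons 1 region had no such match, because a peak was split, and its strongest peaks were compared instead, a choice made after seeing the data. The CASP8 first start gave 0.713 (0.507 to 0.995) for sgFLI1-IFN-γ over WT-IFN-γ, an interval that left out 1. Divided by the median of shared peaks within 5 Mb, it was 0.747 (0.530 to 1.04), which held 1. The CFLAR start gave 1.03 (0.759 to 1.40) for WT-IFN-γ over WT and 0.843 (0.596 to 1.19) for sgFLI1 over WT, the latter between summits 2126 bp apart. An interval that holds 1 does not show equal levels. The promoter intervals of TNFRSF10A, among the narrowest, still allow a ratio of 0.705 to 1.20 with IFN-γ in WT.

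**Figure D4:**
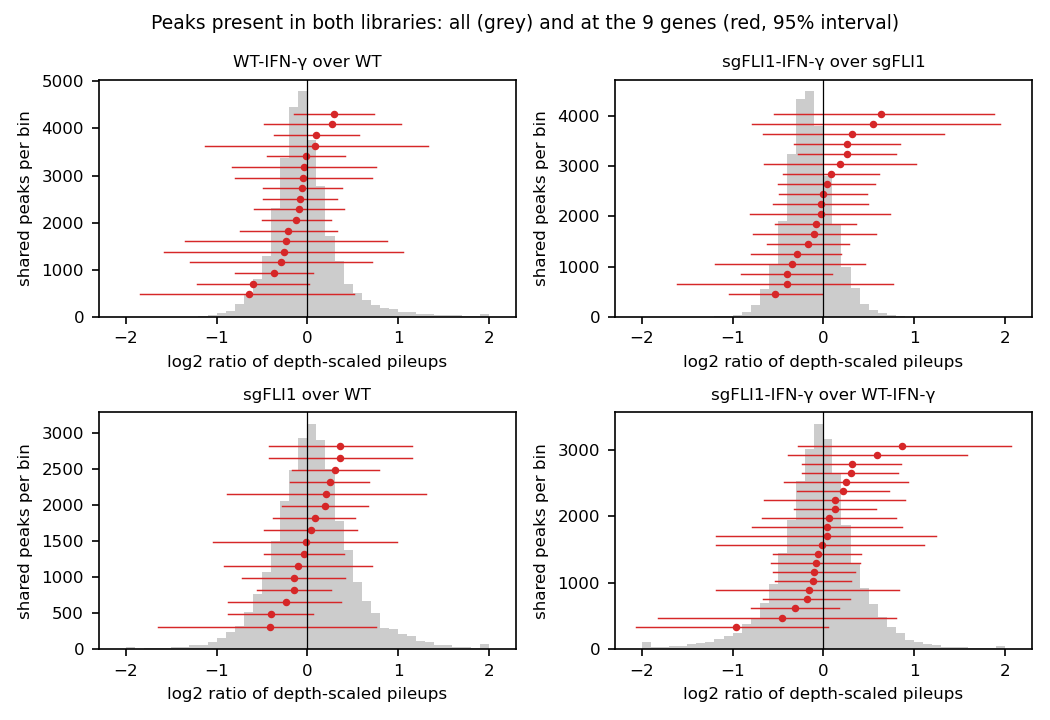
Log2 ratio of depth-scaled pileups for peaks present in both libraries of each pair. Grey bars count all shared peaks with more than 60 tags in sum, ratios past the axis placed in the end bins, and red points with 95% intervals are member peaks matched one to one, at arbitrary heights. The red points lie within the grey distributions, and 1 interval, in sgFLI1-IFN-γ over sgFLI1, lies wholly below 0.

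The IRF motif was found within 100 bp of the summit in 2 of 21 member peaks of WT (9.52%, against 2.35% of all WT peaks), 2 of 27 of WT-IFN-γ (7.41%, against 5.60%), 1 of 20 of sgFLI1 (5.00%, against 2.24%) and 1 of 24 of sgFLI1-IFN-γ (4.17%, against 2.67%). The peaks were those of the CASP8 first start in every library, the CASP8 second start in WT and the distal FAS site in WT-IFN-γ. The TNFSF10 match printed above fell just outside the 100 bp. In the 300-base RefSeq promoters (GRCh38.p14, 250 bases before to 50 after a start), 12 promoters matched TNFSF10, FAS, FADD, CASP8 and CFLAR. Those of TNFSF10 and of the first CASP8 start held 1 IRF match each, and 3.57% of all 35116 promoters in the table held a match. A match describes the letters only.

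Among 30 other death receptor and apoptosis genes, promoters were open in most and stable. The number with a promoter peak was 23 in WT and 24 in WT-IFN-γ, against 25 untreated and 25 treated in FLI1-KO cells. With IFN-γ the median promoter ratio was 1.01 in WT (23 genes) and 0.882 in FLI1-KO cells (25 genes). A gained peak was present in the windows of 5 of the 30 genes in WT (16.7%) and 8 of 30 in FLI1-KO cells (26.7%), beside the shares of all genes given above. No gene of the list gained its promoter peak or its strongest peak in WT. In FLI1-KO cells TNFRSF11B, which encodes the soluble decoy receptor osteoprotegerin, did so, with 11 tags in sgFLI1-IFN-γ (5.49 to 19.7). The untreated FLI1-KO library had another peak near that start, with 7 tags (2.81 to 14.4), which did not overlap it.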

How the data were processed

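Peak lists of the 4 ATAC-seq libraries were analysed as deposited. Per the paper's methods and the submitters' notes, the authors used Trimmomatic (0.3) for trimming and Bowtie2 (2.3.4.1) for alignment to GRCh38, removed low-quality alignments and Picard duplicates, and called peaks with MACS2 (2.1.2) at a q-value limit. The methods also describe an irreproducible discovery rate filter on the peaks, and DiffBind for differential peaks. Whether the transposase offset was corrected, and whether the lists preceded that filter, is not given in the sources used here. Nor is it given whether several libraries were pooled into a list. The deposited lists give for each peak a score, a fold enrichment over local background (a ratio), and the −log10 of its p-value and q-value at the summit.

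The pileup and background of each peak were solved from its fold and −log10 p, which returned whole pileups within 0.001 for 100% of peaks. Tag density, in tags per kb, was the genome-wide background divided by the fragment extension, and pileups were divided by it for ratios. Steps were tested on simulated data. Gene bodies, starts and exons came from GENCODE 44, and windows added 10 kb upstream. Promoter peaks had summits within 1 kb of the canonical start. Intervals were exact Poisson for pileups, exact conditional for ratios and Wilson for shares (95%). Analyses used Python with pandas, scipy and pysam.

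All 9 genes are described. Of the 30 other pathway genes, those named gained their promoter or strongest peak with IFN-γ or stand beside a member (TNFRSF10D, FASLG). The members and lists were chosen with earlier results of these data known. Alternatives were stricter q limits, shorter windows, lists of equal size, summit-based assignment, a larger overlap, other scalings of ratios, and a wider motif window. One result is not reported here.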

Additional observations from a re-analysis of the deposited data

Results flagged for a closer look

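The TNFSF10 promoter region at -86 bp stood apart because treatment went with opposite listings in the 2 genotypes. In WT cells it had no peak untreated and 58 tags with IFN-γ, and in FLI1-KO cells it had 9 tags untreated and no peak with IFN-γ. The difference between genotypes was not tested, as there was 1 library in each group, and the sgFLI1 peak of 9 tags was near the listing limit.

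The number of CFLAR peaks moved in opposite directions with IFN-γ, with a difference of 2 in WT cells and of -1 in those lacking FLI1. This difference was not tested either. One of the 2 additional WT-IFN-γ peaks came from the start region, which was listed as 1 broad peak in WT and as 2 peaks in the other libraries, and the peak missing from sgFLI1-IFN-γ had 10 tags in sgFLI1.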

How the results depend on the processing

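Of the 16 counts and shares, recomputed under the other settings, 64 values stayed within 1.5 times (counts) or within the reported interval (shares) and 12 moved. The intervals of the shares are wide: within 250 bp of the summit the IRF share of member peaks was 14.3% in WT (6.55% of the whole list), 14.8% in WT-IFN-γ (10.5% of the list), 15.0% in sgFLI1 (6.39% of the list) and 16.7% in sgFLI1-IFN-γ (6.99% of the list). Requiring a −log10 q of at least 10 left 15 member peaks in sgFLI1-IFN-γ. Under that limit, of 14 WT peaks 1 met no WT-IFN-γ peak and 1 met no sgFLI1 peak. Of the 15 sgFLI1-IFN-γ peaks, 1 met no sgFLI1 peak and 0 met no WT-IFN-γ peak. Of 15 sgFLI1 peaks, 1 met no sgFLI1-IFN-γ peak and 1 met no WT peak. At a −log10 q of at least 5, of 16 WT peaks 0 met no WT-IFN-γ peak and 0 met no sgFLI1 peak. Of 16 sgFLI1 peaks, 1 met no sgFLI1-IFN-γ peak and 0 met no WT peak. With lists of equal size, 4 of 21 WT peaks met no WT-IFN-γ peak. Shares over all peaks were not computed under these settings, so none of these counts is set against its whole list. Of the 7 regions gained in WT, 6 had a −log10 q of at least 5 and 4 of at least 10, while of the 5 gained in FLI1-KO cells 3 and 0 did. The shares of all gained regions that pass these limits were not computed. All 19 promoter ratios stayed within their intervals under both other scalings. Centring on shared peaks within 5 Mb, a choice made after seeing the data, moved the CASP8 first start ratio from 0.694 to 0.794, and its interval then held 1.

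No paired analysis was possible because each group had 1 library, and no replicate could be left out. Depth limited the weak sites: a site with fewer than about 7 to 19 tags, depending on the local background, would not have been listed. The lists hold only summit values, so accessibility where no peak was listed is not analysed here.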

Other observations

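The NF-κB motif, searched by its consensus on both strands, lay within 100 bp of the summit in 3 of 21 member peaks in WT (14.3%, 4.98 to 34.6, against 3.83% of all WT peaks). It did so in 7 of 27 in WT-IFN-γ (25.9%, 13.2 to 44.7, against 3.84%). In FLI1-KO cells the counts were 2 of 20 in sgFLI1 (10.0%, 2.79 to 30.1, against 3.92%) and 5 of 24 in sgFLI1-IFN-γ (20.8%, 9.24 to 40.5, against 3.88%). Within 100 bp the interval held the share of the list in sgFLI1 only, so untreated WT was also above its list at that width. The 7 peaks in WT-IFN-γ included both peaks of the CFLAR start region and the CFLAR site at +42131 bp. The others were the upstream TNFRSF10B site, the intronic TNFRSF10A site at +6777 bp, the CASP10 promoter and the CASP10-CASP8 region. Of these, the CASP10 promoter and the CASP10-CASP8 region were absent without treatment. NF-κB is known to activate CFLAR. The AP-1 motif was found in 6 of 21 member peaks in WT (against 21.9% of all WT peaks), 8 of 27 in WT-IFN-γ (against 23.5% of all), 4 of 20 in sgFLI1 (against 24.3% of all) and 4 of 24 in sgFLI1-IFN-γ (against 23.2% of all). The ETS motif CCGGAAGT, the class of site that FLI1 binds, was found in 0 of 21, 0 of 27, 0 of 20 and 1 of 24 member peaks in the same order, against 1.42%, 1.28%, 1.39% and 1.39% of all. The neighboring genes CFLAR, CASP10 and CASP8 contribute many of the peaks, so the peaks are not independent of one another.

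Outside the 9 genes, TNFRSF11B, which encodes osteoprotegerin, a soluble receptor that binds TRAIL, had a promoter peak in sgFLI1-IFN-γ that met no sgFLI1 peak. It had 11 tags (5.49 to 19.7) at 78 bp from the canonical TSS, while sgFLI1 listed a promoter peak of 7 tags (2.81 to 14.4) that it did not overlap. The ratio of the promoter pileups was 1.59 (0.562 to 4.83), an interval that held 1. Neither WT library listed a TNFRSF11B promoter peak.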
